A study of Rattus norvegicus with 6 samples.

Results

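Fos, Egr1, Arc and Bdnf are 4 genes whose transcription follows the electrical activity of neurons. They were picked by their Ensembl rat identifiers, ENSRNOG00000008015, ENSRNOG00000019422, ENSRNOG00000043465 and ENSRNOG00000047466 in that order, and all 4 were found among the 31998 identifiers of the deposited table. The table gives identifiers without symbols, so the 4 names are those supplied with the identifiers and could not be checked against it. The RNA came from primary neuron cultures of hippocampi from Wistar rat embryos (E17), grown for 12 days in vitro. All cultures, controls included, had received cytosine arabinoside at 10 µM on day 3, an agent that holds back dividing non-neuronal cells. In 3 of the 6 libraries the cells had been given palmitic acid, a saturated fatty acid, at 200 µM, prepared from an ethanol stock on a bovine serum albumin carrier. The other 3 libraries are labelled vehicle. The labels do not state what the vehicle held, how long the exposure lasted or how many animals went into a culture. The specimen labels N1, N4 and N5 each occur once with vehicle and once with palmitic acid. They are called cultures 1, 4 and 5 here, so that a culture stands for 1 pair of libraries. The labelled cell type could not be checked against its marker genes, because identifiers and symbols were not paired.

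Synaptic activity lets calcium into a neuron, and calcium and MAP kinase signals then act on transcription factors that are already present, among them CREB, which binds the cAMP response element, and SRF, which binds the CArG box. Genes that respond within minutes and need no new protein are called immediate early genes. Fos encodes a subunit of the AP-1 transcription factor and Egr1 a zinc finger transcription factor. Arc encodes a protein of the postsynapse that takes part in removing AMPA receptors from the surface, and Bdnf encodes a secreted neurotrophin that signals through the receptor TrkB. In the hippocampus these genes are widely used as readouts of recent neuronal activity, and Fos and Egr1 also respond to growth factors and stress in many other cell types.

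Promoter sequence from RefSeq (build GRCr8) was at hand for Egr1 and Bdnf, whereas Fos and Arc had no entry. It is shown with matches to the elements that CREB and SRF bind marked. Whether these matches bear on the levels given below was not tested. Each line gives the 250 bases before an annotated start, 5′ to 3′. Capitals mark the core of the cAMP response element (TGACG or its reverse complement CGTCA) and the CArG box (CC, then 6 bases of A or T, then GG).

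Egr1, chr18:26736828-26737077, plus strand: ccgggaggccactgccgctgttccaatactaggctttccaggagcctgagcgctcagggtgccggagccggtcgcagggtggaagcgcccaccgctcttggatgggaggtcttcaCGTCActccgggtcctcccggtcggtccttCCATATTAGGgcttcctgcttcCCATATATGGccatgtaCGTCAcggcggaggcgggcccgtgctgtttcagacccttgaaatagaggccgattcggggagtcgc
Bdnf, the fourth of its 6 annotated starts, chr3:116637608-116637857, plus strand: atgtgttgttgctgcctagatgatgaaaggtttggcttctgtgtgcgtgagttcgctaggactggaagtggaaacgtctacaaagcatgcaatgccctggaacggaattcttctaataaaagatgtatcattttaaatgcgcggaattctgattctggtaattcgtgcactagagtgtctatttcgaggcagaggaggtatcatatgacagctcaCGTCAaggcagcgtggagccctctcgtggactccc

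The Egr1 window held 2 CArG boxes, CCATATTAGG at 105 to 96 bases before the start and CCATATATGG at 83 to 74 bases before it, and 2 cores of the cAMP response element, which begin 135 and 66 bases before it. The fourth Bdnf window held 1 such core, beginning 35 bases before the start, and no CArG box. The windows of the other 5 Bdnf starts held neither. Of all 33469 windows in the table, searched the same way on both strands, 18.2% held this core, 1.5% a CArG box and 0.23% both. At least 2 CArG boxes were found in 7 windows (0.0209%). The search was planned for the presence of each motif alone, and these 2 combined patterns are those that the Egr1 window held. The full palindromic element TGACGTCA, which contains the core on each strand, was in 1.59% of windows, and the E-box CACGTG in 5.59%. Neither was in a window of Egr1 or Bdnf. These matches describe letters only, and the counts do not tell which Bdnf start a read came from.

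The 6 libraries held 15875411 to 18241773 reads assigned to genes. The libraries of culture 4 stood apart from the rest. They lay at 110 (vehicle) and 115 (palmitic acid) on a first principal component that carried 79.5% of the variance, with the other 4 libraries between -64.6 and -50.0. The paired log2 fold changes are therefore also given without culture 4. Their place among all genes, their median and the likeness of pattern rest on all 6 libraries. Levels are in CPM (counts scaled to a common library total, with TMM factors applied), and are compared within a gene only, since gene length was not used. In a culture, fewer cells making a transcript and less transcript per cell cannot be told apart. No 2 libraries were copies of one another.

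With vehicle, Fos had 85, 320 and 427 reads in cultures 1, 4 and 5, or 5.09, 20.8 and 24.4 CPM. With palmitic acid it had 340, 5403 and 640 reads, or 19.4, 298 and 35.0 CPM. The palmitic acid library of culture 4 was far above the other 5, and the groups overlapped, since culture 1 with palmitic acid lay below cultures 4 and 5 with vehicle. Within cultures the level was 3.81-fold higher with palmitic acid in culture 1 (95% counting interval 2.99 to 4.89), 14.4-fold in culture 4 (12.8 to 16.1) and 1.43-fold in culture 5 (1.27 to 1.62). These exact Clopper-Pearson intervals, like those that follow, cover counting error only, since a culture has 1 library per treatment. The mean of the vehicle group was 16.8 ± 10.3 CPM and that of the palmitic acid group 118 ± 157 CPM (SD, n = 3).

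Egr1 had 421, 208 and 1904 reads with vehicle in cultures 1, 4 and 5 (25.2, 13.5 and 109 CPM). With palmitic acid it had 606, 1315 and 2507 reads (34.6, 72.6 and 137 CPM). Culture 5 was the highest under both treatments, and culture 4 went from the lowest of the vehicle libraries to the middle of the palmitic acid libraries. The ratio was 1.37 in culture 1 (1.21 to 1.55), 5.38 in culture 4 (4.65 to 6.26) and 1.26 in culture 5 (1.19 to 1.34), so every interval lay above 1 although the groups overlapped. The group means were 49.2 ± 52.0 and 81.4 ± 51.8 CPM (SD, n = 3).

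Arc, the effector at the synapse, had 83, 69 and 570 reads with vehicle (4.97, 4.48 and 32.6 CPM in cultures 1, 4 and 5). It had 110, 242 and 695 reads with palmitic acid (6.27, 13.4 and 38.0 CPM). Culture 5 with vehicle lay above cultures 1 and 4 with palmitic acid. The ratio was 1.26 in culture 1, with an interval of 0.94 to 1.70 that includes 1. It was 2.99 in culture 4 (2.28 to 3.96) and 1.17 in culture 5 (1.04 to 1.30). The group means were 14.0 ± 16.1 and 19.2 ± 16.6 CPM (SD, n = 3). In the RefSeq table a long non-coding gene, LOC134479925, overlaps Arc, and no label or header says whether the counting used strand, so reads of that gene may be among those of Arc. None of the other 3 genes had an overlapping entry.

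Bdnf, the secreted factor, had 42, 95 and 154 reads with vehicle (2.52, 6.16 and 8.81 CPM in cultures 1, 4 and 5). With palmitic acid it had 49, 506 and 175 reads (2.79, 27.9 and 9.57 CPM). Only culture 4 stood clearly apart between treatments, and its palmitic acid library was the highest of the 6. The ratio was 4.53 in culture 4 (3.64 to 5.71). It was 1.11 in culture 1 (0.72 to 1.72) and 1.09 in culture 5 (0.87 to 1.36), where no difference was detectable at this depth. The group means were 5.83 ± 3.16 and 13.4 ± 13.0 CPM (SD, n = 3), and the groups overlapped.

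**Figure D1:**
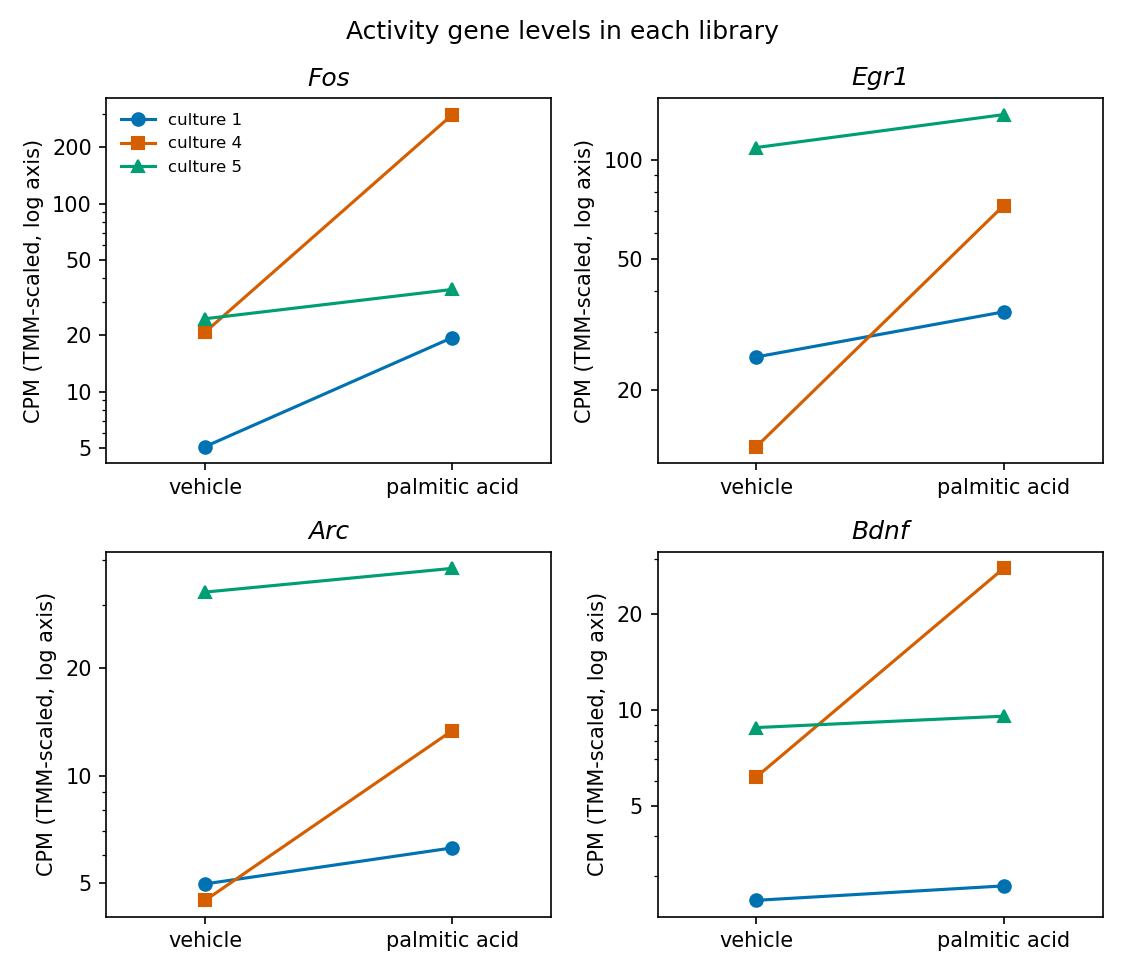
Level of each gene in CPM (TMM-scaled, log axis) with vehicle and with palmitic acid, 1 point per library, with a line joining the libraries of a culture. Every line slopes upward, the line of culture 4 most in each panel, and Fos reaches 298 CPM in culture 4.

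All 12 within-culture differences were thus in the direction of a higher level with palmitic acid. Of the 13938 genes tested, 15.8% were higher in 3 of 3 cultures. Each of the 4 had its largest ratio in culture 4, and 10.2% of the genes tested were higher in all 3 cultures and most so in culture 4. The full order of culture 4, then 1, then 5 was seen in the 4 genes and in 6.14% of the genes tested. In each of the 4 the counting interval of culture 4 lay wholly above those of cultures 1 and 5, as it did for 13.7% of the genes tested. For Fos the intervals of cultures 1 and 5 also did not overlap, while for Egr1, Arc and Bdnf they did, so the order of those 2 cultures is within counting error. Members share the same 6 libraries, so their joint direction is not 4 independent observations. Over an exact sign-flip test of the 3 paired log2 ratios (two-sided), each gene had p = 0.25, the smallest that 3 pairs allow.

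**Figure D2:**
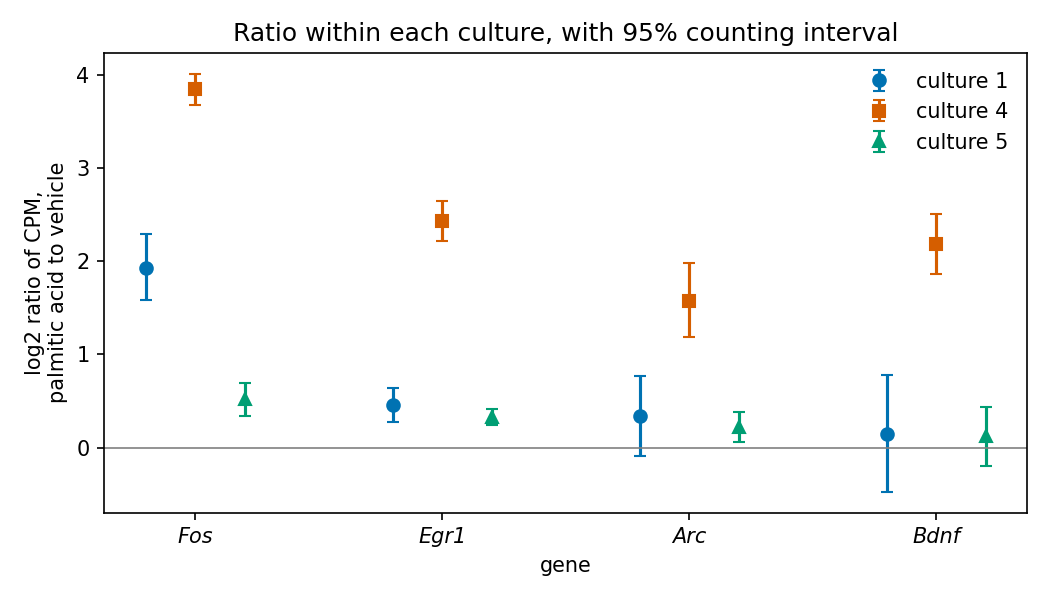
Log2 ratio of CPM, palmitic acid to vehicle, for each gene in cultures 1, 4 and 5, with bars for the 95% counting interval. The points of culture 4 lie between 1.58 and 3.85, above those of the other cultures for each gene, and the bars of Arc in culture 1 and of Bdnf in cultures 1 and 5 cross 0.

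The position of the 4 genes among all genes differed between cultures. In culture 4, Fos ranked 17 of 13938 genes by log2 change, Egr1 71, Bdnf 103 and Arc 222, all more than 2-fold higher, as were 4.9% of genes in that culture. In culture 1, Fos ranked 29, and was the only one of the 4 past 2-fold, against 0.897% of all genes. There Egr1 ranked 727, Arc 1256 and Bdnf 4377. In culture 5 none of the 4 was past 2-fold, against 0.89% of genes, and the ranks were 508 for Fos, 1044 for Egr1, 1926 for Arc and 3560 for Bdnf. Changes of all genes were more widely spread in culture 4, with an SD of 0.62 on the log2 scale against 0.45 in culture 1 and 0.36 in culture 5. Whether that wider spread has a part in the larger ratios of culture 4 was not tested.

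**Figure D3:**
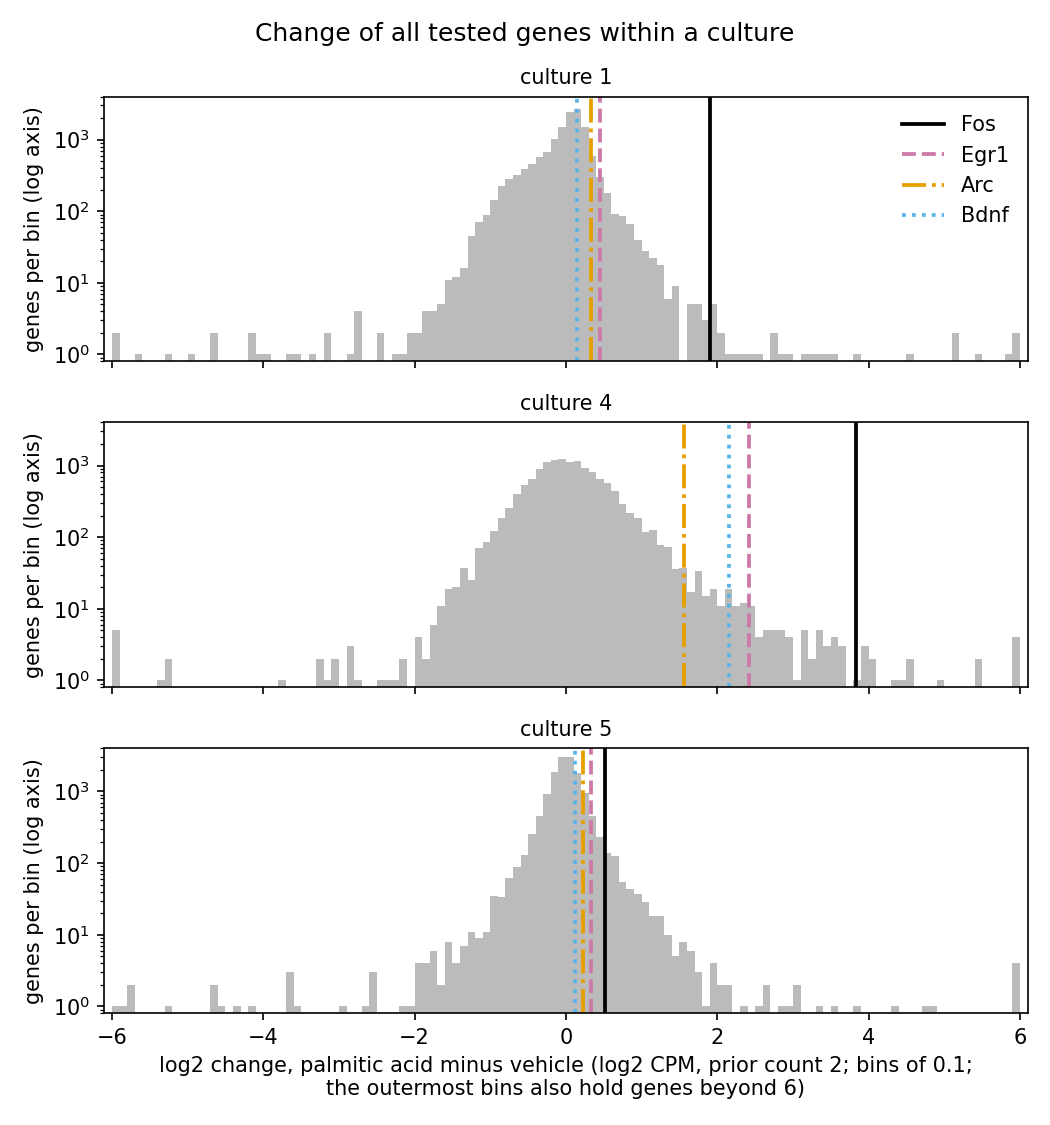
Number of genes (log axis) by log2 change between palmitic acid and vehicle within each culture, with lines at the 4 activity genes. The lines sit in the right tail in culture 4, between 1.55 and 3.84. In culture 1 the line of Fos is also in the right tail, at 1.90. In culture 5 the lines lie nearer the centre, with Fos at 0.52, above 96.4% of genes.

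The comparison of palmitic acid with vehicle asks whether the fatty acid changes these transcripts across cultures. It was fitted in edgeR's quasi-likelihood test with the culture as a block, and p-values were adjusted over all 13938 genes by Benjamini-Hochberg. None of the 4 genes passed the threshold of 0.05, and neither did any other gene (0% called). The estimated log2 fold change of Fos was 2.10 ± 0.62 (SE), a 4.29-fold higher level, larger than that of 99.9% of genes (unadjusted p = 0.0132, edgeR adjusted p = 0.938). Egr1 followed with 1.03 ± 0.41, or 2.04-fold (edgeR unadjusted p = 0.043, adjusted p = 0.938). Bdnf stood at 0.86 ± 0.44, or 1.82-fold (edgeR unadjusted p = 0.0932, adjusted p = 0.938). Arc stood at 0.68 ± 0.29, or 1.60-fold (edgeR unadjusted p = 0.0519, adjusted p = 0.938). At an unadjusted p under 0.05, 2 of the 4 were higher, where 2.01% of all genes were, and 1.53% of genes were lower. The median log2 fold change over the 4 genes was 0.95, beside -0.0041 over all genes tested. In none of the 4 did all palmitic acid libraries lie above all vehicle libraries, which was the case for 2.17% of genes.

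Without the block, the spread between cultures enters the error. The log2 fold change was then 2.81 ± 1.18 for Fos, 1.20 ± 0.87 for Bdnf, 0.73 ± 0.86 for Egr1 and 0.45 ± 0.996 for Arc, each with an edgeR adjusted p of 1. With the culture as a block in DESeq2, 6 of 20710 genes passed (0.029%), none of them among the 4, which had adjusted p-values of 1. The limma fit with the block called 0 of 13938 genes (0%), with adjusted p = 0.934 for each of the 4.

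Culture 4 carried much of each estimate. Without its 2 libraries, the paired edgeR log2 fold change was 1.13 ± 0.31 for Fos, 0.39 ± 0.11 for Egr1, 0.27 ± 0.14 for Arc and 0.13 ± 0.19 for Bdnf. The edgeR adjusted p-values were 0.748 for Fos and Egr1, 0.867 for Arc and 0.937 for Bdnf. Fos thus stood 2.20-fold higher over cultures 1 and 5, and Bdnf 1.10-fold. Without culture 5, where the ratios were smallest, Fos had a log2 fold change of 2.93 ± 0.38. It passed there with an edgeR adjusted p of 0.00202, in a fit that called 5 of 14105 genes. Leaving out culture 5 removes the pair with the smallest ratio, so that call is no added support. Without culture 1 the values were 2.19 for Fos, 1.33 for Egr1, 0.83 for Arc and 1.15 for Bdnf, with an edgeR adjusted p of 0.92 for each.

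**Figure D4:**
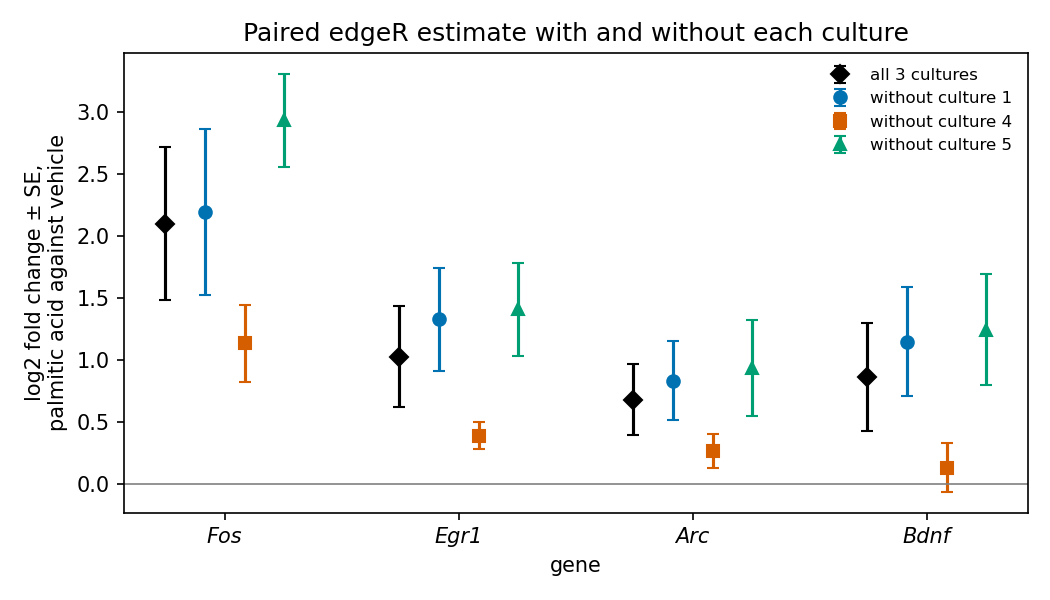
Log2 fold change with its SE, palmitic acid against vehicle, from the paired edgeR fit over all 3 cultures and without each culture in turn. Without culture 4 the estimates run from 0.13 for Bdnf to 1.13 for Fos, the lowest of the 4 fits for each gene.

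Averaged over the treatments, the 4 genes also differed between cultures. An edgeR F test over the culture terms, with treatment in the model, gave adjusted p-values of 0.00309 for Arc, 0.0254 for Egr1, 0.0341 for Bdnf and 0.0359 for Fos. All 4 passed, beside 36% of all genes. In DESeq2 Fos did not pass (adjusted p = 0.052). Each culture has 2 libraries, 1 per treatment, and the test describes these cultures alone.

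Egr1 and Arc were highest in culture 5, over both treatments and in each. Arc was 6.36-fold higher in culture 5 than in culture 1 (log2 2.67 ± 0.36 SE, edgeR adjusted p = 0.0241), a comparison in which 2.92% of genes were called and Arc was the only one of the 4. It was 4.31-fold higher in culture 5 than in culture 4 (log2 2.11 ± 0.35, edgeR adjusted p = 0.00518), where 34.7% of genes were called. Egr1 was 3.53-fold higher in culture 5 than in culture 4 (log2 1.82 ± 0.50, edgeR adjusted p = 0.0327), and its 4.19-fold difference from culture 1 did not pass (edgeR adjusted p = 0.0784). Cultures 4 and 1 did not pass for either gene, with log2 differences of 0.56 ± 0.36 for Arc and 0.25 ± 0.49 for Egr1. The Egr1 value averages differences of opposite direction. Culture 4 was at 0.53 times culture 1 with vehicle (counting interval 0.45 to 0.63) and at 2.10 times with palmitic acid (1.91 to 2.32).

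Averaged over the treatments, Fos and Bdnf were highest in culture 4, through its palmitic acid library, and with vehicle they were highest in culture 5. Fos was 9.60-fold higher in culture 4 than in culture 1 (log2 3.26 ± 0.75, edgeR adjusted p = 0.0183), and Bdnf 5.53-fold (log2 2.47 ± 0.55, edgeR adjusted p = 0.0171), a comparison in which 32.5% of genes were called. Culture 5 did not pass against culture 4 for Fos (log2 -1.53 ± 0.73, edgeR adjusted p = 0.156) or Bdnf (-0.65 ± 0.51, adjusted p = 0.362). It did not pass against culture 1 either, at 1.73 ± 0.72 for Fos and 1.82 ± 0.54 for Bdnf.

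In the vehicle libraries alone the order was culture 1, then 4, then 5 for Fos and Bdnf. Fos was 4.79-fold higher in culture 5 than in culture 1 (counting interval 3.79 to 6.12) and 1.18-fold higher than in culture 4 (1.02 to 1.36). Bdnf was 3.50-fold higher in culture 5 than in culture 1 (2.47 to 5.05) and 1.43-fold higher than in culture 4 (1.10 to 1.87). Egr1 ran in the order 4, 1, 5, with culture 5 at 8.07 times the level of culture 4 (6.99 to 9.36). For Arc, cultures 4 and 1 were not told apart by counting error (ratio 0.90, interval 0.64 to 1.25), and culture 5 was 6.55-fold above culture 1 (5.20 to 8.35). With palmitic acid, culture 4 was the highest for Fos and Bdnf, at 15.4 and 10.0 times the level of culture 1. For Egr1 and Arc it was in the middle, at 2.10 and 2.13 times culture 1, and culture 5 was highest.

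Likeness of pattern was measured as the root mean square difference in log2 CPM over the 6 libraries, after each gene's own mean was taken off. It is a description, since the libraries share cultures. Egr1 and Arc were nearest to each other, at 0.35 log2 units, with no closer gene among the 9731 others for either of them. The second nearest gene stood at 0.44 for Egr1 and 0.40 for Arc. For Fos, Bdnf ranked 5 at 0.81, whereas Egr1 stood at 1.60 and Arc at 1.71. The nearest to Fos were ENSRNOG00000015382 at 0.47 and ENSRNOG00000020009 at 0.47, whose names the files do not give. ENSRNOG00000015382 had 60, 95 and 163 reads with vehicle and 196, 1702 and 211 with palmitic acid in cultures 1, 4 and 5. ENSRNOG00000020009 had 15, 187 and 151 reads with vehicle and 103, 1503 and 212 with palmitic acid. Both were thus higher with palmitic acid in each culture and highest in the same library as Fos. Being picked for likeness to Fos over these same libraries largely brings this with it. The nearest genes to Bdnf stood at 0.32 and 0.41, and Fos ranked 323 for it.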

How the data were processed

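The authors deposited raw read counts per Ensembl rat gene for 6 libraries. Per the labels' protocols, a stranded mRNA kit was used on 500 ng of RNA, with paired reads of 125 bases, while the series' design text speaks of ribosomal depletion and 2 cultures per group. Named per the submitters' processing notes are STAR 2.7.1a, featureCounts, Trimmomatic 0.39, edgeR, Salmon 0.14.1 and DESeq2. No source used here gives their roles, the genome build or the annotation.

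R 4.3.3 was used with edgeR 4.0.16 (quasi-likelihood F test, TMM, filterByExpr with a minimum count of 10, culture and treatment as terms), DESeq2 1.42.0 and limma 3.58.1. A standard error is the size of the log2 fold change divided by the square root of F. The culture block was used because the specimen labels pair the libraries. Deviations from the group means, correlated within each pair, gave 0.771, 0.89 and 0.855 for cultures 1, 4 and 5. Culture 4 stood apart and weighed on both group means, so these values cannot check the pairing of cultures 1 and 5. With 2 residual degrees of freedom, p-values lean on spread shared across genes. Paired fits without a culture have fewer degrees of freedom, so their standard errors and p-values lean on that shared spread as well. In the fit with the block, a p-value sets the mean difference between treatments against its spread, judged over these cultures only. Ranks among all genes rest on log2 CPM (prior count 2). The fits were tested on simulated data. A gene with 0 reads could have had up to 3, or 0.164 to 0.195 CPM. For DESeq2, the culture terms were tested by likelihood ratio.

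The 4 genes, the rule for genes of like pattern (the 2 nearest with a mean of 10 CPM or more) and the motifs were chosen with earlier results of these data known. The RefSeq table (GRCr8, 47357 genes) had no Ensembl identifiers filled in, so the 31998 identifiers could not be matched to it. Lists of other activity-regulated genes and of cell type markers, written as symbols, were therefore not used here. Identifiers of further like genes are not printed for the same reason.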

Additional observations from a re-analysis of the deposited data

How the results depend on the processing

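The log2 fold changes of the 4 genes were recomputed under 19 alternatives, giving 76 values, of which 1 changed direction and 2 passed the adjusted threshold. Arc was -0.52 with no replicate block and without the palmitic acid library of culture 5, against 0.45 with no block over all libraries and 0.68 with the block. That library is the one in which Arc was highest, and the edgeR adjusted p of Arc without it was 1. Both passing values were those of Fos without culture 5, from edgeR with the culture as block (2.93, adjusted p = 0.00202) and from DESeq2 with it (2.91, adjusted p = 5.58e-09), the latter added after the data were seen. Those fits called 5 of 14105 genes in edgeR and 6 of 20057 in DESeq2. Without culture 4 the paired edgeR value of Fos was 1.13. With a library or culture left out, the log2 fold changes ran from 0.67 to 3.31 for Fos and 0.11 to 2.04 for Egr1. They ran from -0.52 to 1.99 for Arc and 0.06 to 1.68 for Bdnf. Fits with a library left out had no block, and gave both ends of every range. With the block, paired edgeR values ran from 1.13 without culture 4 to 2.93 without culture 5 for Fos. In the same order they ran from 0.39 to 1.41 for Egr1, 0.27 to 0.94 for Arc and 0.13 to 1.25 for Bdnf. The count of genes called was 0 in the paired edgeR fit, 6 in the paired DESeq2 fit and 3 with no filter on low counts. With 1 library left out and no block it was 0 each time. Without culture 1, 4 or 5 and with the block kept, it was 6, 4 and 5 in edgeR. In DESeq2 it was then 5, 11 and 6. The cause of these differences was not tested. At an unadjusted p under 0.05 the paired edgeR fit had 493 genes, paired DESeq2 399 and paired limma 557. With no replicate block, no gene was called by edgeR (40 at an unadjusted p under 0.05) or DESeq2 (84). On the difference between cultures, Fos missed the threshold in DESeq2 (log2 3.25 for culture 4 against 1, adjusted p = 0.052), against 3.26 in edgeR. The other 3 genes passed under all 5 alternatives run, which called 4770 to 5305 genes out of 13273 to 20710 tested. Other scalings kept the sign of all 12 within-culture ratios, and the median log2 fold change moved by -0.016 with DESeq2 size factors. Counting error alone left the within-culture difference of Arc in culture 1 and of Bdnf in cultures 1 and 5 undetectable.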
